A study of Bos taurus with 10 samples.

Results

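Chromosome 27 of cattle was examined between 3000001 bp and 43190201 bp of the UMD3.1 assembly, that is, without its first 3 Mb and without the 2 Mb before its highest covered position at 45190201 bp. Members were all CG sites of this inner part with 8 or more reads, 7885 of the 468619 CG positions that the series covered, and a single tissue covered between 2075 and 3949 of them. The chromosome was selected on these same levels, since its mean over all sites ranked first among the inner parts of the 29 autosomes. Its contrasts with the other autosomes are therefore given as a description, with no test.

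The series used reduced representation bisulphite sequencing (RRBS), in which DNA is cut with MspI, bisulphite turns unmethylated cytosines into uracil and the methylation level of a cytosine is the share of reads that kept a C. Each of 10 tissues from a Hereford cow and relatives gave 1 library: adult skeletal muscle, uterus and nucleated blood cells of females, juvenile mammary parenchyma, frontal cortex, abomasum and ileum of females, mammary gland of a female on day 90 of lactation, testis of an adult male and rumen of a male fetus. With 1 library a tissue, the SD values below are over the 10 tissues, and a tissue cannot be told apart from its animal, sex, age or library. The tissues were bulk samples, so a lower level in fewer cells and in every cell cannot be told apart either.

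Methylated CGs carry a methyl group that DNA methyltransferases copy at each cell division. In mammals most CGs are methylated, the CG-rich islands at many gene starts are mostly not, and repeated DNA is usually heavily methylated in somatic cells. Germ cells, which the testis holds beside somatic cells, reset and rebuild their methylation. No annotation of the build was used here, so the positions below are not assigned to genes, exons or introns.

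The sequences below show what the highly and the lowly methylated stretches of chromosome 27 looked like. They were rebuilt from the 5 reference bases that accompany each cytosine, run 5′ to 3′ on the forward strand of UMD3.1, and have every CG in capitals. A1, A2 and A3 were taken from family A, a group of stretches joined by shared 20-base words, and lay at chr27:28480225-28480315, chr27:28652872-28652961 and chr27:28715155-28715244. B came from family B at chr27:28540534-28540689. C at chr27:37600289-37600363 and its near copy at chr27:37639633-37639706 came from the family C, and F at chr27:23711508-23711571 was a recurrent stretch with low methylation. The last pair, at chr27:42527979-42528078 and chr27:14546067-14546117, came from the highest and the lowest of the 14 windows of 1 Mb that had at least 50 sites in every tissue.
A1: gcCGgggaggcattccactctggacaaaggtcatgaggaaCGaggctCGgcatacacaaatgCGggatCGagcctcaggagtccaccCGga
A2: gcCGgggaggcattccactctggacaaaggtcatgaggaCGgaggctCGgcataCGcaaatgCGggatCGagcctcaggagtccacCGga
A3: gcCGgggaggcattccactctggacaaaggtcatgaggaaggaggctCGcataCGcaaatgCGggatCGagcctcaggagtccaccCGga
B: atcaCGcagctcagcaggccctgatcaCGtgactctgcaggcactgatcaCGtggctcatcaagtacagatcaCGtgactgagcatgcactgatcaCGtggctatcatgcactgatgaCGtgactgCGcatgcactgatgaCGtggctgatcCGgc
C: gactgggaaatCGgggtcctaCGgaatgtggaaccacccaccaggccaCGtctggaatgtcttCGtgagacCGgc
C, near copy: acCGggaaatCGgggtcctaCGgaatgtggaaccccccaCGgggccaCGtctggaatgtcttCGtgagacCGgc
F: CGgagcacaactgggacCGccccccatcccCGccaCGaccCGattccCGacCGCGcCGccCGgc
Highest window: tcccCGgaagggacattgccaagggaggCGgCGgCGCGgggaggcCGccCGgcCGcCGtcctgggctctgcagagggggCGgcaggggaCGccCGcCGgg
Lowest window: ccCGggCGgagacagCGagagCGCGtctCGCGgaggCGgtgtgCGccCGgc

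A1 and A2 differed by 4 single-base edits over a distance of 173 kb, and A2 and A3 by 3 edits over 62.3 kb. C and its near copy, 39.3 kb apart, differed by 5 edits. A1, A2 and A3 each held CCGG, the MspI site, 2 times. CCGG reads alike on both strands, and 94.95 % of the 1287 rebuilt autosomal stretches of at least 80 bases held it. B held CACGTG 4 times, a sequence that also reads alike on both strands and was in 2.64 % of those stretches.

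Over all members, the mean CG methylation level of chromosome 27 was 45.5 % ± 3.86 (SD, n = 10 tissues), against 28.9 % ± 3.103 for the pooled sites of the 28 other autosomes. The level was lowest in rumen at 40.8 %, had a median of 45.2 % and was highest in abomasum at 52.9 %. Chromosome 29 followed at 43.4 % ± 2.66 and chromosome 25 at 38.03 % ± 2.60, while chromosome 14 was lowest at 22.02 % ± 5.47. Chromosomes 27 and 29 thus differed by less than the spread over tissues. Chromosome 27 ranked first in 8 tissues and second, behind chromosome 29, in testis (42.4 % against 43.6 %) and frontal cortex (41.5 % against 41.6 %). The difference from the other autosomes was positive in 10 of 10 tissues and averaged 16.5 points ± 3.52. It was 7.68 points in testis and between 15.5 and 20.3 points in the 9 other tissues.

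**Figure D1:**
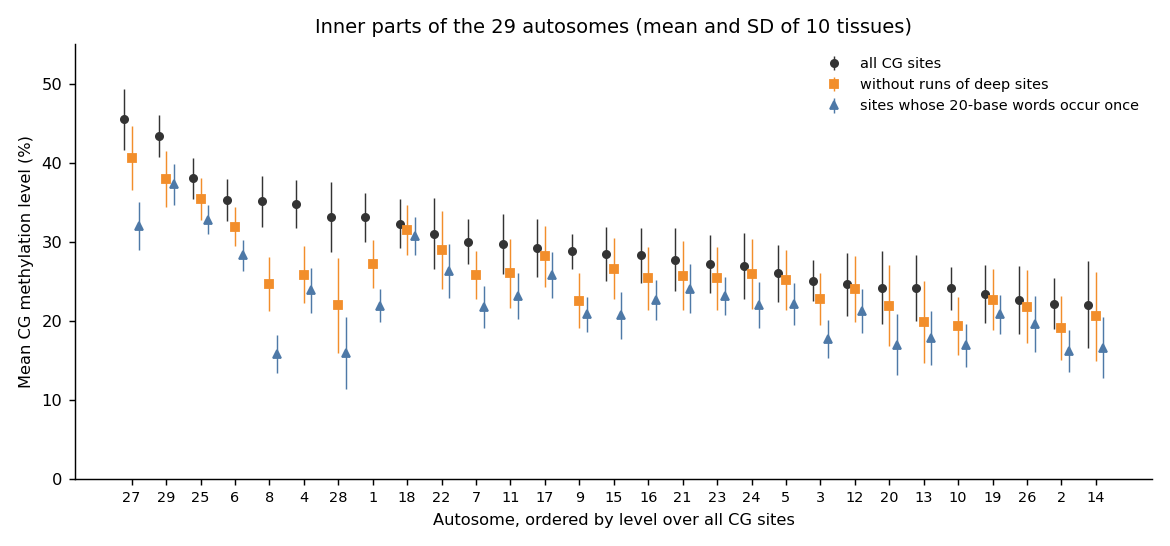
Mean CG methylation level (%, vertical axis) of the inner part of each of the 29 autosomes, ordered along the horizontal axis by the level over all CG sites, with SD bars over 10 tissues. Chromosome 27 leads over all sites (45.5 %) and without runs of deep sites (40.6 %), and ranks 3 among sites whose 20-base words occur once (32.0 %).

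CG levels on chromosome 27 were split between both ends of the scale. Sites above 80 % made up 34.2 % ± 4.87 of its sites, against 20.2 % ± 1.95 on the other autosomes. The share above 80 % was 23.5 % in testis (95 % Wilson interval 22.2 to 24.9 %), had a median of 35.7 % and reached 39.1 % in nucleated blood cells (37.3 to 41.0 %). Sites below 20 % made up 44.5 % ± 5.39 on chromosome 27 and 64.2 % ± 4.92 on the other autosomes. The class from 0 to 10 % held 39.2 % of the sites of chromosome 27 and 58.99 % of those elsewhere, and the class from 90 to 100 % held 24.7 % and 14.4 %. In testis the share above 80 % was only 1.80 points above that of the other autosomes, while in the 9 other tissues it was at least 10.8 points above. These intervals count sites as if independent, although the paper reports high correlations between the levels of adjacent CGs, so they are likely too narrow. Intervals for single sites below count reads, which carry no molecular identifiers in RRBS. Both cover counting error only.

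**Figure D2:**
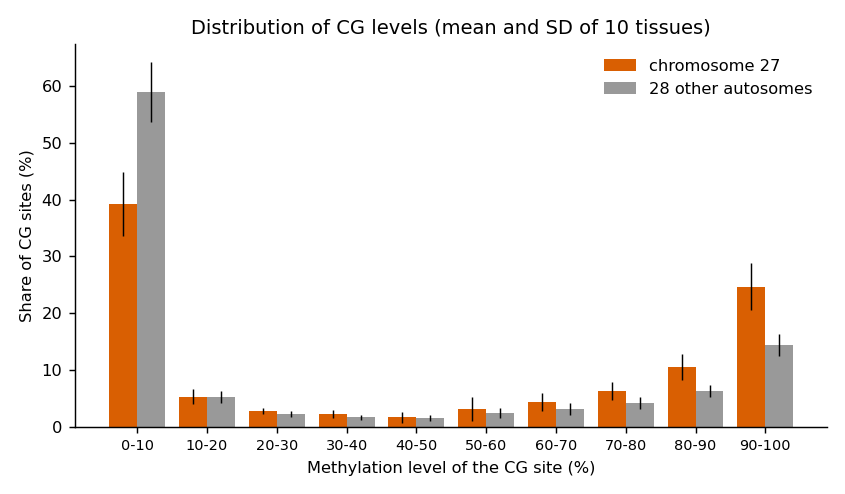
Share of CG sites (%, vertical axis) in classes of methylation level (%, horizontal axis) on chromosome 27 and on the 28 other autosomes, as mean with SD over 10 tissues. Chromosome 27 has fewer sites from 0 to 10 % (39.2 % against 58.99 %) and more from 90 to 100 % (24.7 % against 14.4 %).

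Median coverage was similar on chromosome 27 and elsewhere, but very deep sites were more frequent on chromosome 27, where 8.24 % of the sites had 80 or more reads, against 3.27 % elsewhere. Median coverage per site was between 11 reads in abomasum and 33 reads in ileum on chromosome 27, and between 10 and 33 reads on the other autosomes. The inner part carried 69.9 CG sites per Mb, which ranked 7 among the 29 autosomes. Of the member positions, 4232 (53.7 %) were covered in 1 tissue, 1927 of them in testis, and 967 (12.3 %) in all 10 tissues. Comparisons over all sites therefore mix a change in level with a change in which sites were read.

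Along the chromosome, 41 windows of 1 Mb held members and 24 had at least 10 CG sites in every tissue. Their mean levels ran from 2.77 % to 87.8 %, with a median of 38.8 %, against a median of 16.6 % for 1351 such windows of the other autosomes. Of the 24, 18 lay above that median, 13 above the 75th percentile (34.1 %) and 6 above the 90th percentile (55.6 %) of the other autosomes. Windows above 50 % made up 33.3 % of the counted windows of chromosome 27 (8 windows) and 13.4 % of those elsewhere. With each window counted alike, chromosome 27 still ranked first, at 38.9 %, followed by chromosome 29 at 35.1 %.

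**Figure D3:**
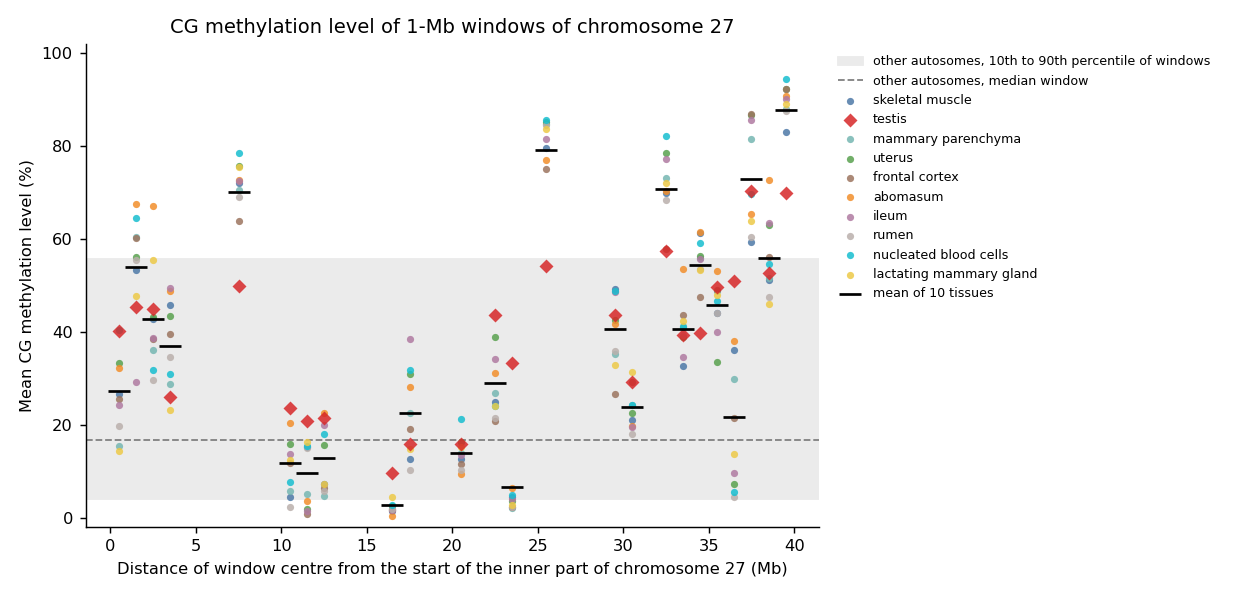
CG methylation level (%, vertical axis) of the 24 windows of 1 Mb with at least 10 CG sites in every tissue, by distance from the start of the inner part (Mb, horizontal axis), with 1 point per tissue, testis as diamonds and the mean as a dash. The grey band spans the 10th to the 90th percentile of windows of the other autosomes (4.01 to 55.6 %), and the highest windows of chromosome 27 stand above it, with testis below the other tissues in several of them.

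Weighted by sites, a few windows carried most of the excess. The excess was not confined to the 2 windows with the most sites. Without these 2 windows of each autosome the difference was still 9.46 points ± 1.95. With windows weighted alike the difference was 15.3 points ± 1.95, but that mean keeps the high windows. The window from 28 to 29 Mb held 16.9 % of the sites of chromosome 27 at 79.1 % ± 9.51, and it added 8.52 points ± 2.41 to the difference of 16.5 points, computed as its share of sites times its level minus that of the other autosomes. The window from 37 to 38 Mb held 11.6 % of the sites at 54.4 % ± 6.63 and added 3.00 points. The windows from 42 to 43 Mb and from 35 to 36 Mb added 2.05 and 1.24 points. Over all windows, 26 added 20.7 points in sum and the 15 others came to -4.200 points.

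Of the 14 windows with at least 50 sites in every tissue, the highest was that from 42 to 43 Mb, at the distal edge of the inner part. Its level was 69.9 % in testis, had a median of 89.7 % and reached 94.5 % in nucleated blood cells, so that testis lay below the other tissues, which began at 83.1 %. Over the 19 sites of this window that every tissue covered, however, testis had 96.7 % and the other tissues 82.6 to 94.7 %. The printed stretch of this window, with 13 CGs in 100 bases, had 94.1 % ± 6.65 and was lowest in rumen at 76.1 %. It had 6 to 18 sites per tissue. The window held no run of deep sites and 2 recurrent positions of 238 with a complete word.

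The window from 35 to 36 Mb had 70.7 % ± 8.09 and that from 41 to 42 Mb 55.8 % ± 8.26. The window from 28 to 29 Mb was lowest in testis at 54.1 %, had a median of 82.6 % and reached 85.6 % in nucleated blood cells. In the window from 37 to 38 Mb the level was 39.6 % in testis, 55.8 % in the median tissue and 61.4 % in abomasum. Testis was below every other tissue in both of these windows, also over the positions that every tissue covered. Over these, testis had 63.8 % against 78.2 to 87.8 % from 28 to 29 Mb (168 positions). It had 38.7 % against 48.7 to 61.3 % from 37 to 38 Mb (136 positions).

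Of the same 14 windows, the lowest lay from 14 to 15 Mb (9.52 % ± 7.59), 13 to 14 Mb (11.8 % ± 6.94), 15 to 16 Mb (12.9 % ± 7.30), 23 to 24 Mb (13.9 % ± 3.43) and 33 to 34 Mb (23.9 % ± 4.64). Windows with fewer sites reached lower, down to 2.77 % from 19 to 20 Mb and 6.57 % from 26 to 27 Mb. In the window from 14 to 15 Mb the level was 0.838 % in frontal cortex, 10.0 % in the median tissue and 20.7 % in testis. Over the 26 sites there that every tissue covered, all tissues lay between 0 and 1.43 %, and testis had 0.797 %. The printed stretch of this window, with 10 CGs in 51 bases, had 1.06 % ± 0.415. The high testis value over all sites in this window thus came with sites that not every tissue covered.

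At the proximal limit, the first Mb inside the inner part had 27.2 % ± 9.28 over 10 to 32 sites. The Mb before it had 84.9 % ± 9.59 over 0 to 20 sites. That mean leaves out the tissues with no site there, so the 2 values are not over the same tissues. At the distal limit, the last Mb inside had 87.8 % ± 6.46 and the Mb after it 39.5 % ± 5.49. The first 3 Mb had 52.2 % ± 4.69 and the last 2 Mb 40.1 % ± 5.72.

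The sites of the window from 28 to 29 Mb were packed into a block of 471 kb at chr27:28465902-28936924, delimited, after its values were seen, by the outermost recurrent positions of the window. It held 1035 of the 1163 CG positions of the window and 15.9 % of the sites of the chromosome. The block was methylated at 58.8 % in testis, 82.4 % in the median tissue and 86.1 % in nucleated blood cells, and the 9 other tissues began at 74.4 %. Its level was high in every class of sequence. Positions whose 20-base words occurred once among all rebuilt stretches had 76.2 % ± 6.40 (96 positions), those with words at 2 to 4 places 79.1 % ± 8.18 (70 positions) and those with words at 5 or more places 83.0 % ± 8.87 (421 positions). Positions without a complete word had 76.4 % ± 8.99. Without the block, and with the other autosomes left whole, chromosome 27 had 39.02 % ± 3.48 and ranked second.

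**Figure D4:**
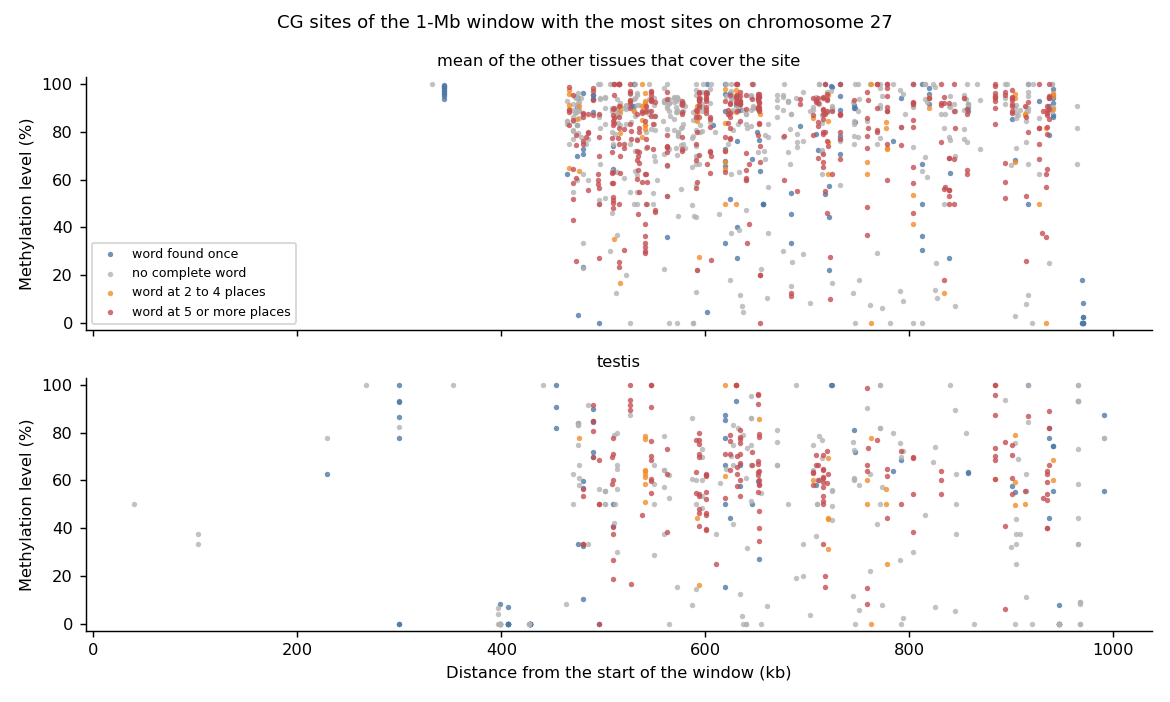
Methylation level (%, vertical axes) of each CG site of the window from 28 to 29 Mb by distance from its start (kb, horizontal axis), as the mean of the other tissues that cover it (top) and in testis (bottom), coloured by how often its 20-base words occur. Sites are dense in a block of 471 kb, at 74.4 to 86.1 % in the other tissues and 58.8 % in testis.

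Recurrent sequence was more frequent among the members than elsewhere. A complete 20-base word was available for 5212 member positions (66.1 %), and 865 of these (16.6 %) lay in a word found at 5 or more places, against 7.28 % on the other autosomes. This share ranked 3 among the 29 autosomes, behind a highest share of 18.7 % on chromosome 8. On chromosome 27, recurrent sites had 70.4 % ± 8.86 and sites with words found once 32.0 % ± 3.00. The difference of 38.5 points ± 10.1 was positive in 10 of 10 tissues (exact two-sided sign-flip permutation test over tissues, p = 0.00195, the smallest it can give, added after the data were seen). The same sites enter every tissue, so the test speaks of the tissues and not of other stretches. Reads were kept by the authors where they aligned to 1 place, and a read from a near copy, such as A2 and A3, may have been placed in the wrong one.

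Within each class of sequence, chromosome 27 stood above the pooled sites of the other autosomes, though not above each of them. Sites with words found once had 32.0 % against 22.4 %, those with words at 2 to 4 places 55.5 % against 31.0 %, recurrent sites 70.4 % against 60.3 %, and sites without a complete word 62.5 % against 45.9 %. Each of these held in 10 of 10 tissues. Chromosome 27 ranked 3 for words found once and 2, behind chromosome 8, for recurrent sites. Split arithmetically, 5.25 points ± 1.65 of the difference of 16.5 points came with the mix of these classes and 11.3 points ± 2.44 with the level inside them. The 301 positions with words at 2 to 4 places were most numerous from 28 to 29 Mb (73) and from 5 to 6 Mb (48), and 45.7 % of the places of their words were on chromosome 27. Local CG density gave a like split, with 4.78 points ± 1.61 for the mix and 11.7 points ± 2.98 for the level inside classes. Members with over 20 covered CG positions within 100 bp had 16.1 % ± 3.58, against 11.02 % elsewhere, and those with 6 to 10 had 61.0 % ± 7.09, against 44.7 %.

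Joined by shared recurrent words, the stretches formed families, of which those with the most member positions were described. Family A had 232 positions in 52 stretches, 226 of them from 28 to 29 Mb, with 62.6 % in testis, a median of 89.1 % and 91.6 % in nucleated blood cells. Its 88 words occurred at 3660 places, 26.4 % of them on chromosome 27 and 9.56 % on sequence not assigned to a chromosome. Family B had 110 positions at 73.2 % ± 11.8. In the printed B stretch, skeletal muscle was lowest at 63.3 %, testis had 64.7 % and abomasum 65.0 %, while mammary parenchyma was highest at 93.5 %. Testis was not the lowest tissue there.

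Families C, D and E were spread along the chromosome, with members from 10 to 11, 25 to 26, 35 to 36 and 37 to 38 Mb in each of them. Their levels were 74.7 % ± 10.2, 72.9 % ± 10.95 and 72.7 % ± 13.2, and testis was lowest in each, at 50.8 %, 50.3 % and 39.4 %. Words of families C and D occurred on 30 sequences each, and 3.98 % and 3.76 % of their places were on chromosome 27. Family F differed from these. Its 41 positions from 23 to 24 Mb had 5.76 % in rumen, 14.9 % in the median tissue and 33.5 % in nucleated blood cells, and testis, at 9.82 %, lay among the others. Recurrence and high methylation did not go together in this family.

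Mean levels of copies were not taken over the same CGs. A1, A2 and A3 held 6, 7 and 6 CGs and had 5 to 9, 5 to 12 and 3 to 11 sites per tissue. C and its near copy held 5 and 7 CGs, with 9 and 8 to 13 sites per tissue. Their means over tissues were 79.4 % ± 11.2 and 83.3 % ± 8.87. Both were read in the same libraries, so the SD over tissues does not measure their difference. The near copy was the higher of the pair in every tissue except mammary parenchyma (84.1 % against 84.4 %). Whether copies differed at the CGs they share was not tested. In testis A1 had 42.0 %, A2 57.5 % and A3 57.1 %, and the mean over tissues was 67.6 % ± 10.7, 85.3 % ± 11.1 and 79.5 % ± 9.08. In C the level was 49.7 % in testis, 83.8 % in the median tissue and 87.8 % in nucleated blood cells. Its near copy had 59.9 %, 86.6 % and 90.2 %. Testis was below the range of the other tissues in all 5 of these stretches.

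Whether sites of very high depth accounted for the high mean was asked with runs of deep sites. A site was called deep where its coverage was above the 95th percentile of its library, which was between 39 and 83 reads, in 50 % or more of the libraries that covered it, and a run joined at least 5 deep sites with gaps of up to 10 kb. Chromosome 27 had 21 runs with 956 member positions (12.1 %, against 6.19 % of positions on the other autosomes). They took 59.6 % ± 5.004 of the reads but 19.3 % ± 3.25 of the sites, and 53 member positions had over 1000 reads in a tissue.

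Sites in runs had 65.6 % ± 7.77 and sites outside runs 40.6 % ± 4.10. The level in runs was 46.5 % in testis and 59.3 to 73.5 % in the 9 other tissues. The difference of 25.03 points ± 8.93 was positive in 10 of 10 tissues (exact two-sided sign-flip permutation test, p = 0.00195, the smallest it can give), from 4.75 points in testis to 33.6 points in mammary parenchyma. On the other autosomes the same difference was 34.4 points ± 9.53. Runs were methylated more, yet the level fell by only 4.88 points ± 1.71 without them. The difference from the other autosomes, likewise without runs, was 15.1 points ± 3.52 in place of 16.5, and chromosome 27 ranked first with this definition of runs. It ranked 2 when deep sites were those above the 90th percentile or when gaps of up to 100 kb were joined, and 3 over positions covered in all tissues. Outside runs, 31.1 % ± 3.33 of its sites were above 80 %.

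Classes of depth gave a like picture. Sites with 8 to 11 reads had 53.3 % ± 5.17 on chromosome 27 and 36.6 % elsewhere, those with 20 to 39 reads 42.5 % ± 10.4 and 27.9 %, and those with 80 reads or more 62.2 % ± 11.6 and 59.7 %. The difference of chromosome 27 was thus smallest, 2.50 points ± 3.47, among the deepest sites. Weighted by reads, the difference was 7.01 points ± 4.74 and chromosome 27 ranked 4. Of the positions in runs with a complete word, 73.5 % were recurrent, against 9.02 % outside runs, so depth and recurrence moved together and their parts were not tested.

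The 21 runs fell apart into 17 at 67.6 to 94.0 % and 4 below 20 %, and 10 of them lay from 28 to 29 Mb. Testis was below the range of the other tissues in 16 of the 17 methylated runs and in none of the 4 others. The run with the most positions was at chr27:37615861-37650239, with 181 CG positions and levels of 49.0 % in testis, 73.2 % in the median tissue and 81.1 % in nucleated blood cells. The runs at chr27:35829587-35847119, chr27:28705629-28723724 and chr27:37591333-37600352 had 49.9 %, 58.6 % and 44.8 % in testis, against 60.4 to 83.5 %, 77.1 to 88.7 % and 64.0 to 84.0 % in the other tissues. The run at chr27:23694402-23711918, which holds F, had 7.41 % in rumen, 15.0 % in the median tissue and 31.8 % in nucleated blood cells. A site in it had up to 14653 reads.

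**Figure D5:**
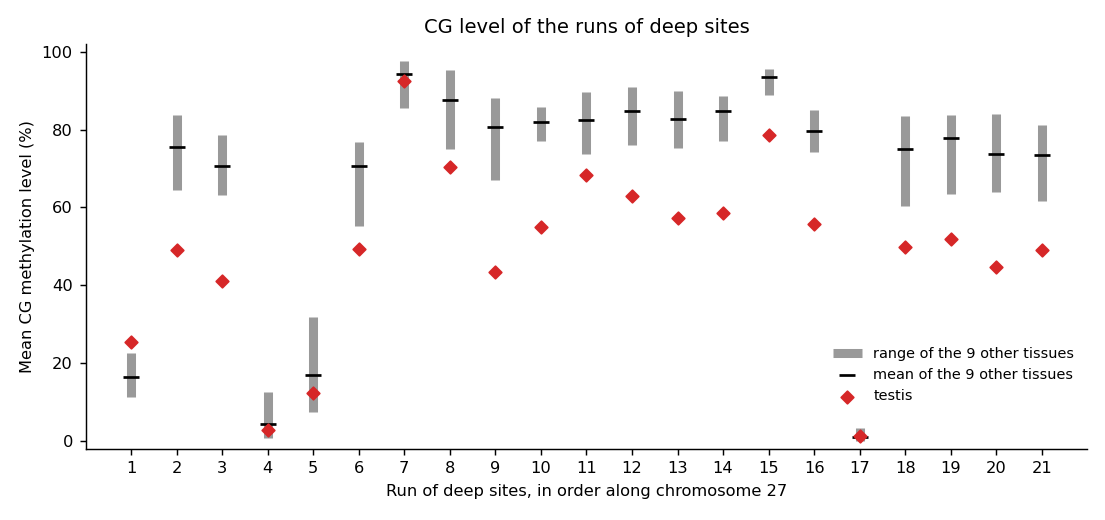
Mean CG methylation level (%, vertical axis) of the 21 runs of deep sites in order along chromosome 27 (horizontal axis), with the range (bar) and mean (dash) of the 9 other tissues and testis as diamonds. In 16 of the 17 runs above 50 % testis lies below the bar, and the 4 low runs stay below 20 %.

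Testis was compared with the 9 other tissues by an exact two-sided permutation test, in which 1 library against 9 cannot go below p = 0.1. Over all sites testis had 42.4 % and the others 45.8 % ± 3.93 (SD, n = 9; exact p = 0.5). Over the 967 positions covered in all tissues, testis had 32.9 %, below the other tissues at 38.8 to 46.2 % (exact p = 0.1). On the other autosomes, testis was the highest tissue over all sites (34.7 %, others 25.2 to 32.7 %) and the lowest over the positions covered in all tissues (20.9 %, others 23.6 to 28.4 %). The order of testis thus depended on whether every tissue covered the sites, and the next values are for positions covered in all tissues.

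At recurrent positions covered in all tissues (241 positions), testis had 49.1 % and the others 62.9 to 77.2 %, a difference of testis minus their mean of -22.3 points (exact p = 0.1). On the other autosomes such positions had 44.8 % in testis and 54.1 to 67.8 % in the others, a difference of -17.4 points, so that a lower testis level there was not particular to chromosome 27. At positions with words found once (530 positions), testis had 20.3 % and the others 21.1 to 25.4 %, a difference of -2.97 points (exact p = 0.1). Testis was lowest in both. Frontal cortex was the next lowest at recurrent positions, at 62.9 %. Of 19 windows with at least 10 such common positions, testis was below the other tissues in 7 of the 8 above 50 % and in 2 of the 11 others. The exception among the 8 was the window from 42 to 43 Mb, given above. Such window counts are not given for the other autosomes.

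Differentially methylated cytosines (DMCs) were called between pairs of libraries by Fisher's exact test with Benjamini-Hochberg adjustment, with q under 0.01 and levels 25 or more points apart, over every cytosine covered in all 10 tissues. These tests compare libraries, not tissues. Of the 967 members tested, 300 (31.0 %) differed in at least 1 of 45 pairs, against 19.8 % of all CG sites tested. Testis was lower in at least 1 pair at 242 sites (25.03 %, background 13.9 %) and higher at 17 sites (1.76 %, background 2.54 %). Pairs with testis gave 65 to 153 DMCs each. The 36 other pairs gave 1 to 61, the most between nucleated blood cells and frontal cortex. Counts per pair are not given for the other autosomes, so they are not read as particular to chromosome 27.

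Sites that differed in all 9 pairs of a tissue in 1 direction were called specific to it. On chromosome 27 these were 26 sites lower in testis (2.69 %, background 0.540 %). None was higher in testis (background 0.0151 %) and none was specific to another tissue (background 0.247 %). Of the 26, 25 lay among the 314 members tested in runs, 20 among the 241 in recurrent sequence and 16 among the 168 from 28 to 29 Mb. These were 7.96 % of the members in runs and 8.30 % of those in recurrent sequence, against 2.46 % and 2.47 % on the other autosomes. DMCs took 143 of 241 recurrent positions (59.3 %, against 44.3 % on the other autosomes). They took 96 of 530 positions with words found once (18.1 %, against 12.03 %). Sites in runs are deep, and depth helps a test to call. With the reads of each site thinned to its lowest library, 112 members (11.6 %) were called, and 5.25 % of all CG sites.

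Among 275 members with at least 20 reads in every tissue, testis was below the other tissues at 178 (64.7 %, against 49.9 % of such sites on the other autosomes) and above them at 3 (1.09 %, against 2.17 %). The widest gap was at position 37639695, in the near copy of C. There testis had 17.5 % (337 reads, Wilson interval 13.8 to 21.9 %), and the others ran from 75 % in ileum to 92.0 % in mammary parenchyma. Position 37616511, in the same run, had 19.2 % in testis from 26 reads (8.51 to 37.9 %), against 71.4 to 96.3 %. In the block, position 28723710 had 43.4 % in testis and 80.8 to 95.6 % elsewhere, and position 37600310, in C, had 39.5 % and 74.3 to 98.0 %. All 4 were specific to testis in the sense above, which largely follows from their choice by this gap.

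Outside runs the widest gap was at position 6171235, where testis had 60.9 % from 23 reads (40.8 to 77.8 %) and the others 88.9 to 100 %. It was followed by position 37561750, with 42.9 % and 69.2 to 86.7 %. Neither passed the test in all 9 pairs. In the low run at 23 to 24 Mb, position 23694723 had 4.42 % in testis and 10.3 to 28.3 % in the others, which was no DMC in all pairs either.

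Of the 967 members covered in all tissues, 6.72 % were above 80 % in every tissue and 39.7 % below 20 % in every tissue, against 4.97 % and 62.9 % on the other autosomes. A range of at least 50 points over tissues was seen at 11.996 % of these members and 7.82 % of the sites elsewhere. Non-CG levels were low. CHG sites of chromosome 27 had 1.32 % ± 0.187, against 1.06 % ± 0.123 elsewhere, and CHH sites 1.74 % ± 0.318, against 1.49 % ± 0.249. Both were higher on chromosome 27 in 10 of 10 tissues, by 0.256 and 0.254 points, where it ranked 4 and 2 among the autosomes. Unconverted cytosines add to levels of this size, and their part was not tested.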

How the data were processed

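The authors aligned bisulphite reads to UMD3.1 with a SOAPaligner pipeline, used uniquely mapped reads and deposited, per cytosine with at least 8 reads, the read counts and the methylation level as a fraction. Levels were recomputed as methylated reads over all reads and averaged over sites in Python 3.11.15 with NumPy 2.4.6, pandas 2.3.3, SciPy 1.17.1 and Numba 0.67.0. Coverage per member site had a median of 11 to 33 reads by tissue. Groups followed the tissue labels, with 1 library each. Windows were 1 Mb long. Rebuilt stretches gave 20-base words, counted over the genome on both strands with 0 conflicting bases, and a word at 5 or more places was called recurrent.

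Named were the 5 highest and 5 lowest windows with at least 50 sites in every tissue, the 5 runs with the most positions, and, among sites with at least 20 reads in all tissues, those with the widest gap between testis and the nearest tissue. Some of these sites are given in the text. Members, families and lists were chosen with earlier results of these data known. DMC calling was tested on simulated data, where 182 of 200 sites changed by up to 60 points among 20000 were recovered. Alternatives covered depth, weights, common sites, strands, windows, run definitions and recurrence.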

Additional observations from a re-analysis of the deposited data

Results flagged for a closer look

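In 39 sets of 10 tissue values, 1 tissue stood apart from the other 9 by a gap that was large against the whole range in 14 sets, and in 12 of these it was testis. Chance alone marks about 1 in 20 sets, and these sets share sites. Stretches printed only for sites named for their testis gap were left out. C was kept, although it holds position 37600310, which was named for that gap, so its low testis value was partly chosen.

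For chromosome 27 minus the other autosomes, testis had 7.68 points and the others 15.5 to 20.3. In runs of deep sites testis had 46.5 % and the others 59.3 to 73.5 %. The window from 28 to 29 Mb had 54.1 % in testis against 75.1 to 85.6 %, and the window from 42 to 43 Mb 69.9 % against 83.1 to 94.5 %. Among runs, that at chr27:28705629-28723724 had 58.6 % in testis against 77.1 to 88.7 %, and that at chr27:37591333-37600352 had 44.8 % against 64.0 to 84.0 %. Family A had 62.6 % against 81.4 to 91.6 %, and family E 39.4 % against 61.2 to 83.3 %. The stretches A1, A2 and A3 had 42.0 %, 57.5 % and 57.1 % in testis, while the other tissues began at 60.8 %, 76.9 % and 73.9 %. C had 49.7 % in testis against 73.4 to 87.8 %. The window from 42 to 43 Mb is a weak case, because testis was the highest tissue over its sites covered in every tissue, as given above. The low testis value of that window thus came with sites that not every tissue covered.

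The other tissues set apart were rumen and abomasum. In the printed stretch of the window from 42 to 43 Mb, rumen had 76.1 % and the others 91.1 to 97.8 %. Tissues covered 6 to 18 sites of that stretch, so these values are not over the same CGs. In that of the window from 14 to 15 Mb, abomasum, the library with the lowest median coverage on chromosome 27 (11 reads), had 0 % and the others 0.815 to 1.54 %.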

How the results depend on the processing

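Without each tissue in turn, the level of chromosome 27 ranged from 44.6 to 46.0 %, its difference from 16.1 to 17.5 points, the share above 80 % from 33.7 to 35.4 %, the in-run difference from 24.1 to 27.3 points, and the level and difference without runs from 39.6 to 41.2 % and 14.5 to 15.9 points. The in-run difference stayed positive and past 0.05 under each alternative tried, from 14.1 to 34.2 points. No paired analysis was possible because each tissue has 1 library and no replicate numbers pair libraries. The in-run and recurrent differences were taken within each library.

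The level moved to 39.2 % (difference 15.3 points, rank 1) with windows weighted alike. It moved to 40.1 % (difference 11.2 points, rank 2) when standardized to local CG density. The difference was 7.01 points weighted by reads and 12.96 points over whole chromosomes. Over positions covered in all tissues chromosome 27 ranked 2, behind another autosome, with 41.9 %. Alternatives chosen after seeing the data gave, as level, difference and share above 80 %, 32.0 %, 9.55 points and 24.3 % for words found once, 38.6 %, 10.99 points and 28.01 % without the window with the most sites of each autosome, 36.0 %, 9.46 points and 26.2 % without the 2 such windows (rank 2, behind chromosome 25), and 39.02 %, 10.1 points and 28.5 % without the block. The level was 40.6 % without recurrent sequence and 38.3 % without both runs and recurrent sequence.

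Without runs, the level was 44.9 % with deep sites above the 99th percentile, 35.2 % (difference 10.3 points, rank 2) with gaps up to 100 kb and 31.7 % (rank 3) over positions covered in all tissues. It was 38.4 % (rank 2) with deep sites above the 90th percentile. The testis contrast (testis minus the mean of the others) turned from -3.42 points to 1.31 points outside runs, and was -6.07 points at 20 reads, -10.01 points over positions covered in all tissues and -16.7 points weighted by reads (exact p = 0.5, 0.8, 0.4, 0.1 and 0.1). DMCs numbered 161 (16.6 %, against 12.02 % of all CG sites) at 40 points, 165 of 275 members (60 %, against 53.4 %) at 20 reads and 112 (11.6 %, against 5.25 %) with thinned reads, in place of 300. The median of windows, taken per tissue and averaged, was 43.8 % at 20 reads, over 9 windows, against 36.8 % over 24. The causes were not tested. Depth limits sites with 8 to 11 reads, and unique placement of reads limits the recurrent ones.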
